A study of Mus musculus with 6 samples.

Results

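The serpins are a superfamily of protease inhibitors and related proteins, and their transcripts were followed here in the mouse uterus with and without deletion of Foxo1. The members were all genes of the deposited table whose symbol is Serpin followed by a clade letter from a to i and a number, and 63 of the 23420 genes of the table qualified. The rule uses the symbol alone, although the superfamily was chosen with earlier results of these data known. RNA-seq was made from uteri at day 4.5 of pseudopregnancy, taken from 8-week-old C57BL/6J females that had been mated with vasectomized males, so the tissue held no embryo. Control females were Foxo1f/f and conditional knockout females were PgrCre/+ Foxo1f/f. Both genotypes carry floxed Foxo1 alleles, and Cre from the Pgr locus deletes them in cells that have expressed the progesterone receptor. Each genotype had 3 libraries, and each library was made from the pooled RNA of 2 females. According to the study's immunostaining, FOXO1 is lost from the uterine epithelium and stroma of such animals and kept in their blood vessels.

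An inhibitory serpin offers an exposed reactive centre loop as bait to a protease, is cleaved there, and then changes shape so that the protease is trapped in a covalent and inactive complex. Clade A holds secreted inhibitors such as alpha-1-antitrypsin and alpha-1-antichymotrypsin, while clade B proteins stay mostly inside the cell and guard it from granule proteases. Other clades control coagulation, fibrinolysis and complement, and a few members have lost the inhibitory function and act as chaperones, growth factors or hormone carriers. In the uterus, protease inhibitors are secreted by the epithelium and the decidualizing stroma and take part in limiting tissue breakdown around implantation.

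The deposited values are the authors' mean raw counts per gene and genotype. A library held on average 26125014 counts in Foxo1f/f and 27257963 in PgrCre/+ Foxo1f/f. Levels in counts per 1000000 (CPM) are mean counts scaled to that total. Each ratio below is the mean count of PgrCre/+ Foxo1f/f over that of Foxo1f/f, each scaled by the total of its genotype. The interval beside a ratio is a 95% Wilson interval computed from count sums, 3 libraries a genotype, and takes in counting error alone. The means do not show how the 3 pools of a genotype spread, so no SD or test across pools was computed from them, and they leave the overlap of the genotypes unknown. The authors' own test results were not used. A gene was said to be past 1.5-fold where its ratio exceeded that size and its mean count, averaged over both genotypes, reached 10. In bulk tissue, fewer cells of a type and less RNA per cell cannot be told apart. The targeted gene had mean counts of 3941 (Foxo1f/f) and 1456 (PgrCre/+ Foxo1f/f), which left 35.4% of its scaled level (log2 ratio -1.50, interval -1.55 to -1.45). The conditional allele removes 1 coding exon, and a count over the whole gene can still hold reads from its other exons. The uterine markers Esr1, Pgr, Hoxa10, Hoxa11, Hand2 and Pdgfra were all present at mean counts of 2968 to 16794 and all 6 stayed within 1.5-fold.

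A pair of secreted inhibitors that lie close together on chromosome 12 stood apart from the other serpins. Serpina1e, one of the mouse alpha-1-antitrypsin genes, was 7.53-fold higher in PgrCre/+ Foxo1f/f, and Serpina9, the gene of a serpin known in humans from germinal centre B cells, was 4.65-fold higher. The most abundant inhibitor past 1.5-fold lower was Serpina3n, an acute-phase relative of alpha-1-antichymotrypsin, which was 1.69-fold lower. Serpinb6c, a clade B gene with few counts, was 2.80-fold lower. The most abundant serpins other than Serpina3n, namely Serpinh1, Serping1 and Serpinf1, were nearly level between the genotypes.

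Of the 63 members, 29 reached this mean count. Of these, 5 were over 1.5-fold higher in PgrCre/+ Foxo1f/f (17.2%), where 5.57% of the 15696 genes with such a count were. Another 4 were over 1.5-fold lower (13.8%), beside 3.63% of all genes. The remaining 20 lay within 1.5-fold. The median log2 ratio of the 29 was -0.01, beside 0.02 for all 15696 genes, and the median size of the log2 ratio without its sign was 0.21 beside 0.14.

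The share of genes past 1.5-fold depended on the mean count, since ratios of low counts scatter more, and the serpins were therefore also set beside genes of like count. Among genes averaging 10 to under 100 counts, 16.8% of all genes were higher and 10.6% lower, and of the 15 serpins in that range 4 were higher and 3 lower. At mean counts of 100 to under 1000, 4.94% of all genes were higher and 3.04% lower, and of 6 serpins there 1 was higher, Serpina1e, and 0 were lower. At 1000 or more, 1.75% of all genes were higher and 1.42% lower, and of 8 serpins 0 were higher and 1 was lower, Serpina3n. Each of the upper ranges thus held 1 serpin past 1.5-fold.

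**Figure D1:**
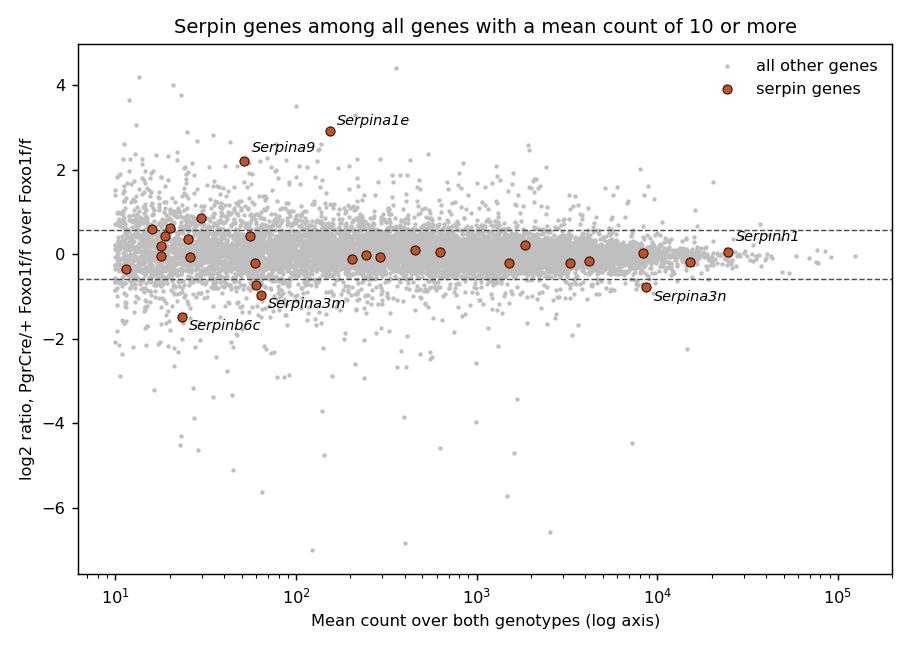
Log2 ratio of PgrCre/+ Foxo1f/f over Foxo1f/f (y axis) against the mean count over both genotypes (x axis, log scale) for the 15696 genes that reached a mean count of 10, with the 29 serpin genes as large points and dashed lines at 1.5-fold. Most serpins lie inside the cloud of other genes, Serpina1e (2.91) and Serpina9 (2.22) lie high, and Serpina3n (-0.76) lies below the dashed line among abundant genes.

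The alpha-1-antitrypsin genes are shown first by sequence, because they are close copies of one another and because the assignment of reads among them decides what the Serpina1e value means. In RefSeq on GRCm38.p6, 5 of them, Serpina1a to Serpina1e, lie on the minus strand of chromosome 12. Up to 199 bases of promoter could be aligned to that of Serpina1e, with an identity of 95.5% to 98.0%. The block that could be aligned in all 5 is printed 5′ to 3′ and lies before the annotated start of each gene. It spans chr12:103956960-103957142 in Serpina1e, chr12:103863625-103863807 in Serpina1a, chr12:103738200-103738384 in Serpina1b, chr12:103904962-103905144 in Serpina1c and chr12:103773634-103773816 in Serpina1d. Capitals mark bases that differ from Serpina1e and, in Serpina1e itself, the bases at which any of the others differ.
Serpina1e: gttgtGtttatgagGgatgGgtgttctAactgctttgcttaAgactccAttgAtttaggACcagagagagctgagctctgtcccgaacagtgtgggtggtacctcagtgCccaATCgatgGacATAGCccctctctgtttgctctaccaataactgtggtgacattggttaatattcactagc
Serpina1a: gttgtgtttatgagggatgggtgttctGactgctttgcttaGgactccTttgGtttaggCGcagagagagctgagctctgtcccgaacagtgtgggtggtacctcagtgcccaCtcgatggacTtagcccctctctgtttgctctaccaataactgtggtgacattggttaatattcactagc
Serpina1b: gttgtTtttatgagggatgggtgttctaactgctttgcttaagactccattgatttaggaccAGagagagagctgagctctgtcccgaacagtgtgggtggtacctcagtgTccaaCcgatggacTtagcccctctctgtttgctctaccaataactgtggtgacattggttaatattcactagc
Serpina1c: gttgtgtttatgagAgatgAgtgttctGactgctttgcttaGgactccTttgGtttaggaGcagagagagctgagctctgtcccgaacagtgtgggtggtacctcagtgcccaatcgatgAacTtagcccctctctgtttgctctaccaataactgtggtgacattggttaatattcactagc
Serpina1d: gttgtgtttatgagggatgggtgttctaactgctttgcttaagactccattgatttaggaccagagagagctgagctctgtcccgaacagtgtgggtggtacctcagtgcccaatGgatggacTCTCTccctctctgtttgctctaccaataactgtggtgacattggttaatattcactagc

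The promoter of Serpina1e differed from those of the other copies by 6 to 9 bases in this block, counting 2 inserted bases in Serpina1b. Forkhead factors of the FOXO group are known to bind the letters GTAAACA and ATAAACA, and both were searched on both strands of the 300 bases around each start, of which 250 lie before it. The motifs differ in their first letter and cannot match the same bases on the same strand. GTAAACA was found in 0 of the 52 members with a promoter entry, while 4.05% of 27025 genes held it. ATAAACA was found in 7 of the 52 (13.5%), beside 5.28% of all genes. These were Serpina1a, Serpina1c, Serpina1d, Serpina1e, Serpina3c, Serpina3f and Serpina3n. The 4 Serpina1 promoters among them are near-identical copies that share the match, so they do not count as separate observations. In Serpina1e the match lay on the minus strand of the promoter at -241 from the start. It fell in the opening letters of the block printed above, where Serpina1b differs and held no match. The same match lay at -190 in Serpina1c, -184 in Serpina1a and -179 in Serpina1d, whose annotated starts lie nearer to the block.

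The coding sequences of the same 5 genes, read from GENCODE M21 transcripts, were also nearly identical. Leaving out the distant Serpina1f, their open reading frames shared 96.3% to 98.5% of their bases. The stretch of 60 bases with the most differences from Serpina1e was picked. It lay at positions 1102 to 1161 of the 1242-base frame of Serpina1e and held 18 of the 86 variable positions of that frame. In antitrypsin this stretch encodes the reactive centre loop, the bait that decides which protease is trapped. It is printed 5′ to 3′ to show where reads of Serpina1e can be told from those of its copies, and capitals mark differences as above.
Serpina1e: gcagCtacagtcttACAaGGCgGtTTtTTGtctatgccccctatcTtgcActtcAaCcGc
Serpina1a: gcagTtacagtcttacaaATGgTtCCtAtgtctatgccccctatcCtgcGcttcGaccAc
Serpina1b: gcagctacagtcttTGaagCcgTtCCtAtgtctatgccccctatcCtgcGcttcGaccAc
Serpina1c: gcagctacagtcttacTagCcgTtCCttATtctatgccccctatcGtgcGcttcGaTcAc
Serpina1d: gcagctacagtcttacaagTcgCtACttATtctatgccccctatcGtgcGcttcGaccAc

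In this stretch Serpina1e differed from the other copies at 10 to 12 bases. Reads of 90 bases were counted in the study. Of all 90-base windows along the Serpina1e transcript, 79.4% occur in no GENCODE transcript of another gene. This share was 71.5% in Serpina1b, 67.7% in Serpina1d, 47.2% in Serpina1a and 29.3% in Serpina1c. Windows of Serpina1e that were not unique were shared mostly with Serpina1a, at 20.0% of its windows. How the counter treated reads that match several genes is not given in the sources used here, so the split of counts between Serpina1a and Serpina1c is uncertain.

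Within the alpha-1-antitrypsin family, the difference between the genotypes lay in Serpina1e. It had mean counts of 34.7 (Foxo1f/f) and 272 (PgrCre/+ Foxo1f/f) (log2 ratio 2.91, interval 2.62 to 3.21). Serpina1b had mean counts of 62 and 56.3 (log2 ratio -0.20, interval -0.50 to 0.10). Serpina1a had 15.7 and 22 (log2 ratio 0.43, interval -0.11 to 0.97), and Serpina1c had 16.3 and 19.7 (log2 ratio 0.21, interval -0.34 to 0.75). The intervals of these 3 genes all hold 0. Serpina1d had 7 in both genotypes, and Serpina1f had 0 counts in Foxo1f/f and 1 count in all in PgrCre/+ Foxo1f/f.

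The 5 genes other than Serpina1e together had mean counts of 101 and 105 (log2 ratio -0.00, interval -0.23 to 0.23). Serpina1e made up 25.6% of the counts of its family in Foxo1f/f and 72.1% in PgrCre/+ Foxo1f/f. Summed over the family, alpha-1-antitrypsin transcripts were 2.67-fold higher (interval 2.38-fold to 2.99-fold). If reads that match several copies were dropped, both this sum and the share of Serpina1e also depend on the unequal shares of unique windows given above. Alpha-1-antitrypsin is made mainly by the liver, and liver markers were scarce here. Alb had mean counts of 6 and 4.67, Apoa1 of 0.333 and 1, and Fgb of 9 in Foxo1f/f and 0 in PgrCre/+ Foxo1f/f, and only Ttr reached the count minimum, at 114 and 47.3.

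Serpina9 was the other gene with a large ratio. It had mean counts of 17.7 (Foxo1f/f) and 85.7 (PgrCre/+ Foxo1f/f) (log2 ratio 2.22, interval 1.79 to 2.64), and 99.5% of its 90-base windows are unique. It lies 39.7 kb from Serpina1e on chromosome 12, with 1 other member between them, Serpina11, which had mean counts of 0.667 and 1.33. Markers of B cells were looked up for this gene after its value was known. All 4 (Cd79a, Cd79b, Ms4a1 and Pax5) were higher in PgrCre/+ Foxo1f/f, 1 of the 2 that reached the count minimum by over 1.5-fold, and their summed level went from 2.79 to 4.72 CPM. Cd79b had mean counts of 43 and 77, and Cd79a of 25.7 and 37. The part of B cells in the Serpina9 value was not tested.

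Adipocyte markers also moved with the genes that were higher. All 5 (Adipoq, Plin1, Cidec, Lep and Cfd) were 3.54-fold to 4.69-fold higher in PgrCre/+ Foxo1f/f, and their summed level went from 10.2 to 38.9 CPM. Adipoq, for example, had mean counts of 53.7 and 201. Krt5, Krt14 and Krt15, keratins of basal and stratified epithelium, were 6.12-fold, 4.24-fold and 11.5-fold higher, while Trp63 was level (1.06-fold) and Dsg3 was 2.38-fold lower. The summed level of the 10 stratified epithelium markers went from 9.10 to 23.4 CPM, and only 5 of the 10 reached the count minimum. Their part in the ratios of Serpina1e, Serpina9 or Serpinb5 was not tested.

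The alpha-1-antichymotrypsin family has been expanded in the mouse into a row of Serpina3 genes, of which 11 were in the table and 7 reached the count minimum. Its members moved both ways, with 2 higher, 2 lower and 3 within 1.5-fold. Serpina3n made up nearly all of the family's counts. It had mean counts of 10746 (Foxo1f/f) and 6627 (PgrCre/+ Foxo1f/f), 1.69-fold lower (log2 ratio -0.76, interval -0.78 to -0.73), with 99.3% of its windows unique. SERPINA3N is a secreted acute-phase protein that inhibits granule proteases such as granzyme B and leukocyte elastase. Serpina3m had mean counts of 83 and 44.3 and was 1.95-fold lower (log2 ratio -0.97, interval -1.27 to -0.66). Both genes lie at the same end of the row, next to each other.

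The members in the middle of the row were level or higher. Serpina3f had mean counts of 20.7 and 39 (log2 ratio 0.85, interval 0.41 to 1.30), and Serpina3c had 15.3 and 24.7 (log2 ratio 0.62, interval 0.10 to 1.15). Serpina3h, at 46 and 65.3, came nearest to the threshold from below (log2 ratio 0.44, interval 0.13 to 0.76). Serpina3g, a member found in lymphoid cells and activated by immune signals, had 431 and 481 (log2 ratio 0.10, interval -0.01 to 0.21), and Serpina3i had 26 in both genotypes. Serpina3b had 1 count in all, and Serpina3a, Serpina3j and Serpina3k had 0. Summed over the family, the log2 ratio was -0.70 (interval -0.72 to -0.67), which is close to that of Serpina3n alone.

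**Figure D2:**
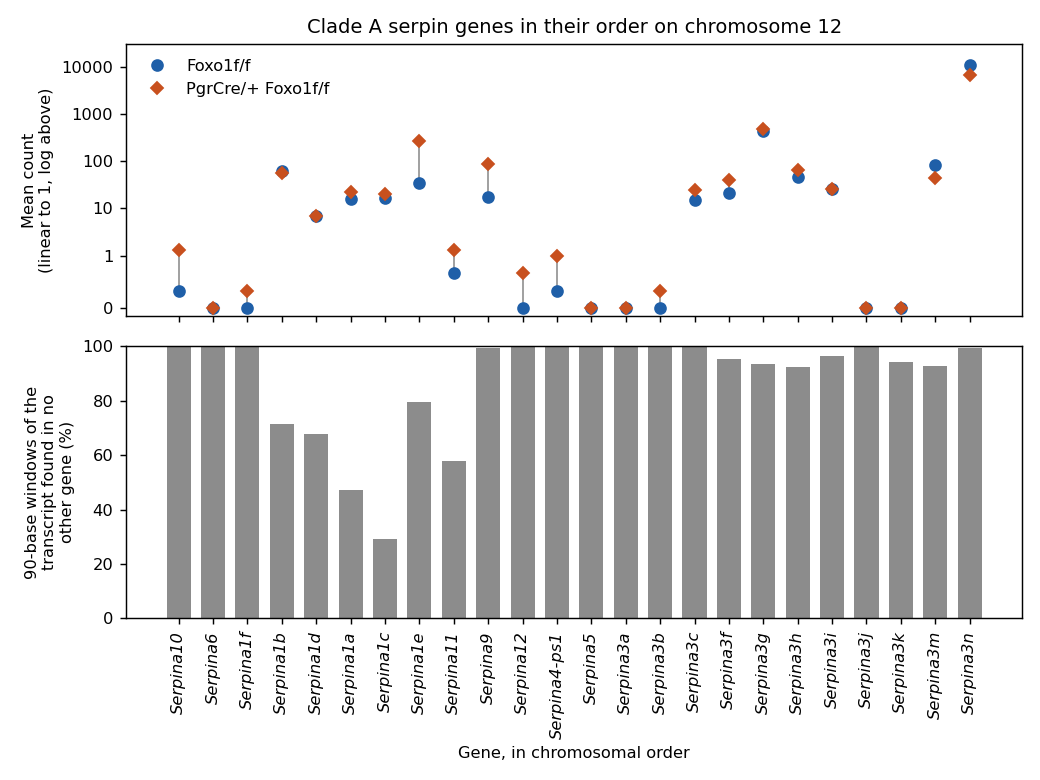
The 24 clade A serpin genes on chromosome 12 in their order (x axis), with the authors' mean count of each genotype in the upper panel (circles Foxo1f/f, diamonds PgrCre/+ Foxo1f/f, axis linear up to 1 and log above) and the share of 90-base transcript windows found in no other gene in the lower panel (%). Serpina1e and Serpina9 are the genes with the widest gap upwards, Serpina3m and Serpina3n at the right end are lower in PgrCre/+ Foxo1f/f, and unique windows are fewest in Serpina1c (29.3%).

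All of these clade A genes lie in 1 row on chromosome 12, between bases 103616675 and 104414334 of GRCm38. This row held 24 of the 63 members and 12 of the 29 that reached the count minimum. Of those 12, 4 were past 1.5-fold higher and 2 lower, with a median log2 ratio of 0.32. Of the 17 on other chromosomes, 1 was higher and 2 were lower, with a median of -0.05. The counts of the row as a whole were lower (log2 ratio of the sums -0.63, interval -0.65 to -0.60), because Serpina3n holds most of them. Outside the row the sums were nearly level (-0.03, interval -0.04 to -0.02). The row holds mostly genes of low count, for which the background above is 16.8% higher and 10.6% lower.

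The serpins of coagulation, fibrinolysis and complement stayed within 1.5-fold, 5 of 5 that reached the count minimum out of 9. Serping1, the C1 inhibitor that restrains the first complement proteases and the contact system, had mean counts of 15708 and 14539 (log2 ratio -0.17, interval -0.19 to -0.15). Serpine2, protease nexin-1, which inhibits thrombin and plasminogen activators, had 3459 and 3118 (log2 ratio -0.21, interval -0.25 to -0.17).

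The liver-made inhibitors of this group were near the count minimum. Serpinc1, antithrombin, had mean counts of 17.7 and 18, but 58.5% of the 90-base windows of its GENCODE transcript are shared with Zbtb37, so its level is uncertain. Serpind1, heparin cofactor II, had 12.7 and 10.3 (log2 ratio -0.35, interval -1.03 to 0.32). Serpinf2, the plasmin inhibitor alpha-2-antiplasmin, had 13 counts in all in Foxo1f/f and 8 in PgrCre/+ Foxo1f/f. Serpinb2, which inhibits urokinase, had 4 and 6, Serpina10 had 1 and 4, and Serpina5 had 0 in both.

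Among the hormone carriers and other non-inhibitory members, 2 of 4 reached the count minimum, and both were abundant and within 1.5-fold. Serpinh1 encodes HSP47, a collagen chaperone of the endoplasmic reticulum, and alone made up 33.0% of all serpin counts in Foxo1f/f and 37.4% in PgrCre/+ Foxo1f/f. It had mean counts of 23568 and 25741 (log2 ratio 0.07, interval 0.05 to 0.08). Serpinf1, pigment epithelium-derived factor, which restrains angiogenesis, had 8051 and 8625 (log2 ratio 0.04, interval 0.01 to 0.06). The hormone carriers Serpina6, corticosteroid-binding globulin, and Serpina7, thyroxine-binding globulin, had 0 counts in both genotypes. Agt, angiotensinogen, a serpin by descent whose symbol lies outside the rule, had 39.7 and 53 (log2 ratio 0.36, interval 0.01 to 0.70).

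Compared per transcript length, so that genes can be set side by side, the order of the abundant serpins differed little between the genotypes. Serpinh1 stood at 397 scaled counts per kb in Foxo1f/f and 415 in PgrCre/+ Foxo1f/f, and Serping1 followed at 340 and 302. Serpina3n came next in Foxo1f/f at 199, ahead of Serpinf1 at 168, and the order of these 2 was turned in PgrCre/+ Foxo1f/f, at 118 and 173. Serpina1e stood at 1.02 and 7.72, far below these genes in either genotype. The spread over pools is not known, so neighbours in this order cannot be said to differ.

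**Figure D3:**
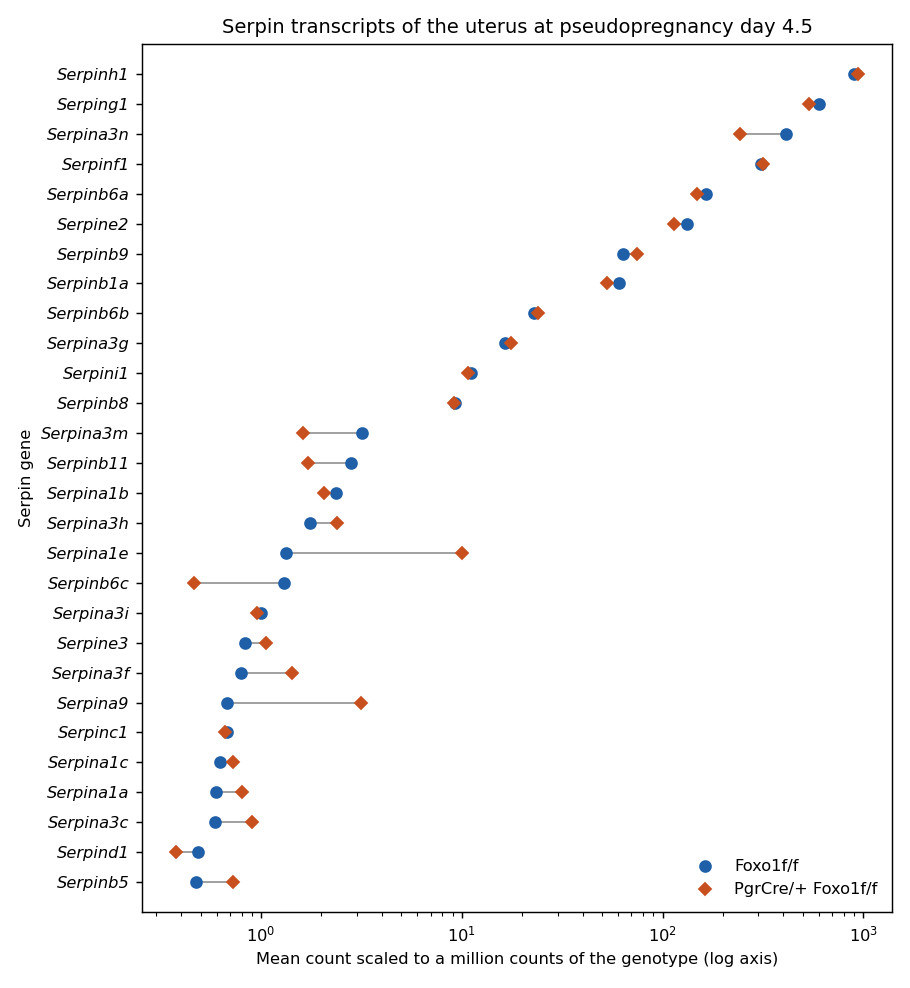
The mean count of each of 28 serpin genes in CPM of its genotype (x axis, log scale), for Foxo1f/f (circles) and PgrCre/+ Foxo1f/f (diamonds), in order of level in Foxo1f/f. The pairs of points nearly coincide for most abundant genes, except Serpina3n (411 and 243), and are farthest apart for Serpina1e (1.33 and 9.99) and Serpina9 (0.676 and 3.14).

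The intracellular clade B serpins that guard cells against granule proteases were mostly level, with 4 of the 5 that reached the count minimum within 1.5-fold and 16 genes in the group. Serpinb6a, which inhibits cathepsin G and other serine proteases, had mean counts of 4319 and 4028 (log2 ratio -0.16, interval -0.20 to -0.13), though 13.4% of its 90-base windows are shared with another gene model. Serpinb9, the inhibitor of granzyme B that protects cytotoxic and bystander cells, had 1657 and 2030 (log2 ratio 0.23, interval 0.18 to 0.29). Serpinb1a, an inhibitor of neutrophil elastase and cathepsin G, had 1578 and 1439 (log2 ratio -0.19, interval -0.25 to -0.14). Serpinb6b had 598 and 654 (log2 ratio 0.07, interval -0.02 to 0.16).

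The exception was Serpinb6c. It had mean counts of 34 and 12.7 and was 2.80-fold lower in PgrCre/+ Foxo1f/f (log2 ratio -1.49, interval -2.02 to -0.95), and all of its 90-base windows are unique. Serpinb6e, another copy of the family, had 4 counts in all in Foxo1f/f and 0 in PgrCre/+ Foxo1f/f. Summed over the Serpinb6 family, the log2 ratio was -0.14 (interval -0.17 to -0.10). Serpinb10 was under the count minimum, with 4 counts in all in Foxo1f/f and 21 in PgrCre/+ Foxo1f/f (log2 ratio 2.33, interval 0.85 to 3.81).

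Some neutrophil and lymphocyte markers were higher beside these genes. Of the 8 neutrophil markers in the table, 4 reached the count minimum and 3 of them were past 1.5-fold higher. These were S100a9 at 12.3 and 30.7, Mpo at 26.3 and 52.3, and Cxcr2 at 9 and 14.3. The interval of Cxcr2 held 0 (-0.08 to 1.30). All 3 had few counts, and of all genes averaging 10 to under 100 counts 16.8% were higher. Elane and Ngp had 0 counts in Foxo1f/f and a mean of 1 in PgrCre/+ Foxo1f/f, while Camp went the other way, from 1.33 to 1. The summed level of the neutrophil list went from 11.8 to 17.1 CPM, of which Csf3r, within 1.5-fold, held 9.70 and 13.0. Of the 9 T and NK cell markers, 4 were past 1.5-fold higher, Cd3e (2.14-fold), Cd3d (2.63-fold), Cd8a (3.93-fold) and Gzma (1.65-fold). The other 5 lay within 1.5-fold, Gzmb (log2 ratio -0.01), Klrb1c (0.09), Nkg7 (0.29), Ncr1 (0.38) and Prf1 (0.57). The summed level of the 9 went from 115 to 151 CPM. The 5 macrophage markers lay within 1.5-fold, with a median log2 ratio of 0.18. The part of these cells in the values of Serpinb9 and Serpinb10 was not tested.

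The clade B serpins of epithelia had low counts in the uterus, and 3 of the 10 reached the minimum. Serpinb11 had mean counts of 73.7 and 46.7 and was 1.65-fold lower (log2 ratio -0.72, interval -1.02 to -0.42). Serpinb5, maspin, a non-inhibitory protein of mammary and other epithelia, had 12.3 and 19.7 (log2 ratio 0.61, interval 0.02 to 1.20), so that its ratio lay just past the threshold with an interval that reached almost to 0. Serpinb8, an inhibitor of furin, had 241 and 250 (log2 ratio -0.01, interval -0.16 to 0.14). Serpinb12 had 8 and 19 counts in all, Serpinb7 had 0 and 4, and Serpinb13, Serpinb3a, Serpinb3b and Serpinb3d had 0.

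Among markers of the uterine epithelium, Krt19 was 2.33-fold higher and Krt8, Krt18, Epcam and Cdh1 lay within 1.5-fold. Of 3 gland markers, Cxcl15 was 1.94-fold higher and Foxa2 and Sox9 lay within 1.5-fold. Smooth muscle markers were 5 of 5 within 1.5-fold but all lower, with a median log2 ratio of -0.34. Endothelial markers were likewise 5 of 5 within 1.5-fold and all lower, with a median of -0.22. The part of these cells in the log2 ratios of Serping1, Serpine2, Serpinb1a and Serpinb6a, between -0.16 and -0.21, was not tested.

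The remaining members were Serpini1, neuroserpin, an inhibitor of tissue plasminogen activator in brain, and Serpine3. Serpini1 had mean counts of 290 and 291 (log2 ratio -0.05, interval -0.19 to 0.08). Serpine3 had 21.7 and 29 (log2 ratio 0.36, interval -0.10 to 0.82), with 7.08% of its windows shared with Ints6, and Serpini2 had 0 counts.

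**Figure D4:**
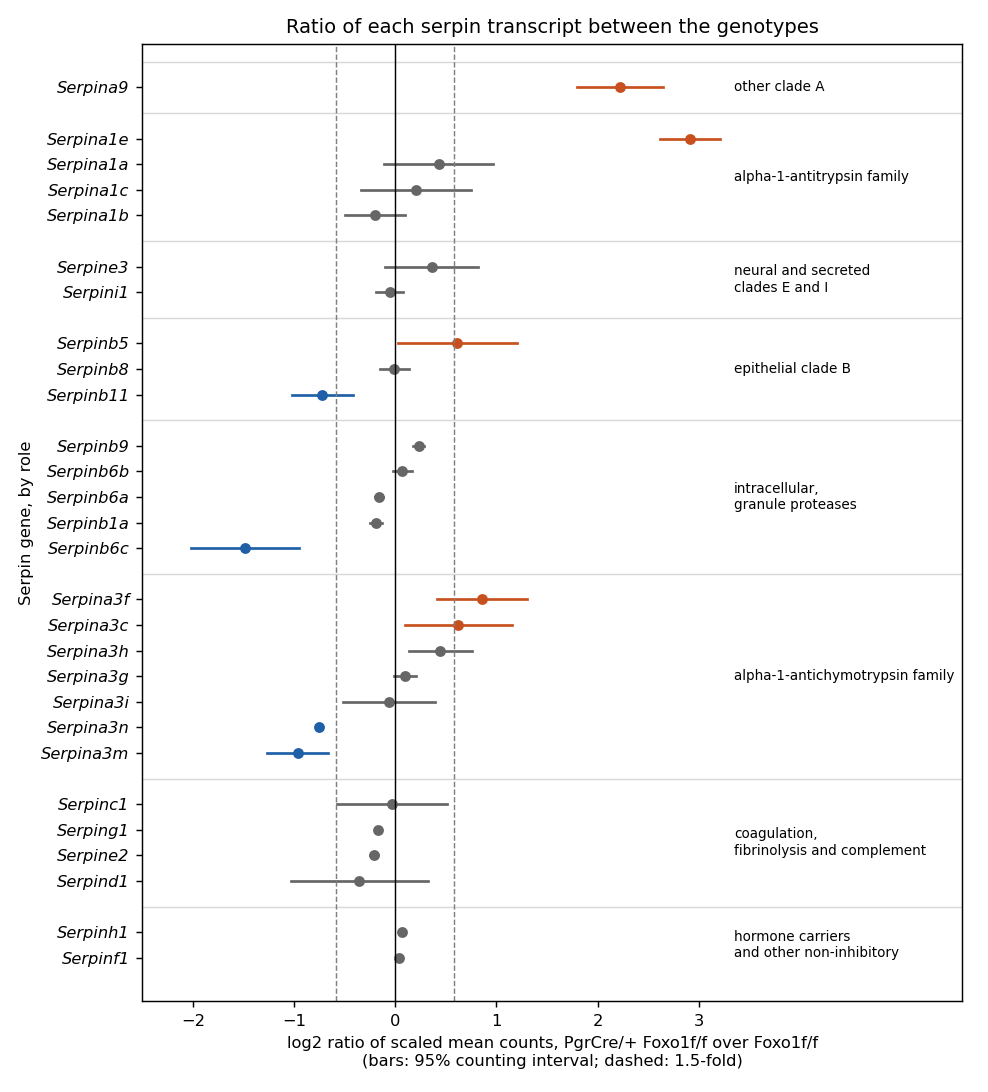
Log2 ratio of PgrCre/+ Foxo1f/f over Foxo1f/f (x axis) for 28 serpin genes that reached the count minimum, grouped by role, with bars for the 95% counting interval and dashed lines at 1.5-fold. Of the 9 genes past 1.5-fold, 4 are the clade A genes on the right that are higher (Serpina1e, Serpina9, Serpina3f and Serpina3c), Serpinb5 is just past the line, and Serpinb6c, Serpina3m, Serpina3n and Serpinb11 lie on the left.

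Counting error bore unequally on these 9 genes. All 9 had an interval that left out 0. In 5 of them the whole interval lay past 1.5-fold, namely Serpina1e, Serpina9, Serpina3n, Serpina3m and Serpinb6c. The intervals of Serpina3f, Serpina3c, Serpinb5 and Serpinb11 reached back inside 1.5-fold. Of the 20 genes within 1.5-fold, 8 had intervals that left out 0 and 12 had intervals that held it. High counts make small ratios precise, but Serpina3h, among the 8, had low counts (46 and 65.3) and a larger log2 ratio (0.44).

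The 34 members under the count minimum had few reads. Of these, 16 had 0 counts in both genotypes, which allows up to 0.0383 CPM (3 counts of the summed total) in Foxo1f/f and 0.0367 in PgrCre/+ Foxo1f/f. The other 18 had mean counts of at most 7 in Foxo1f/f and 9.33 in PgrCre/+ Foxo1f/f, and 14 of them had the higher scaled level in PgrCre/+ Foxo1f/f. The like share over all genes under the minimum was not counted, so this number cannot be read as a trait of the serpins. The counts of the 18 genes summed to 82 and 141. Serpinb9b, the largest of these, had 15 and 28 counts in all (log2 ratio 0.84, interval -0.05 to 1.73). Being under the minimum, these genes were not counted as past 1.5-fold whatever their ratio, which was 5.03-fold for Serpinb10 and 2.28-fold for Serpinb12.

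All serpins together made up 0.273% of counts in Foxo1f/f and 0.253% in PgrCre/+ Foxo1f/f. The 5 most abundant genes (Serpinh1, Serping1, Serpina3n, Serpinf1 and Serpinb6a) held 87.4% and 86.5% of these. Sequence overlap touched few of the abundant members. Of the 63 transcripts, 34 had no 90-base window in common with another gene, 50 had over 90% unique windows and 4 had under 50%.

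A list drawn up around proteases that serpins act on also held cofactors and receptors, such as F3, Kng1 and Plaur. Of its 70 genes in the table, 49 reached the count minimum. Of these, 4 were past 1.5-fold higher and 11 lower, with a median log2 ratio of -0.03, beside the backgrounds of 5.57% and 3.63%. F3 and Kng1 are among the 11. Several large ratios belonged to secreted serine proteases. Prss28 and Prss29, the implantation serine proteases, had mean counts of 5046 and 55 and of 13746 and 652, 95.7-fold and 22.0-fold lower. Prss35 had 245 and 2, and Pcsk6, a proprotein convertase, had 1163 and 343, 3.54-fold lower. The membrane proteases Tmprss4 and Tmprss2 were 2.25-fold and 1.64-fold lower, whereas the tissue kallikreins Klk11 and Klk1 were 1.96-fold and 1.77-fold higher at mean counts of at most 57.3.

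The genes of plasminogen activation and complement were mostly level, while those of coagulation and the granzymes were split. Of 4 genes of plasminogen activation that reached the count minimum, 4 lay within 1.5-fold, among them Plat at 3027 and 3792 and Plau at 702 and 663. Of 7 complement proteases, 6 lay within 1.5-fold, and C2 was 1.69-fold higher. In coagulation, 2 of 4 genes that reached the minimum were past 1.5-fold lower. F3, tissue factor, had 4819 and 2861 and was 1.76-fold lower. Kng1, kininogen, a cofactor of the contact system, had 127 and 2.67 and was 49.6-fold lower. Of 8 granzymes, Gzmb, a target of SERPINA3N and SERPINB9, was level at 767 and 793. Gzma was 1.65-fold higher, and Gzmd, Gzmf and Gzmg were 1.57-fold, 2.37-fold and 2.49-fold lower. The 4 neutrophil and mast cell proteases and the 6 cathepsins that reached the minimum lay within 1.5-fold. Of the former, Mcpt4, Cma1 and Tpsb2 were lower (log2 ratios -0.44, -0.42 and -0.57), with intervals that left out 0. Prtn3 was at 0.24 with an interval that held 0.

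Protease inhibitors of other families were also mostly within 1.5-fold, with a few large ratios. Of 47 in the table, 29 reached the count minimum, and 5 were past 1.5-fold higher and 4 lower, with a median log2 ratio of -0.08. Over all 15696 genes that reached the count minimum, 5.57% were higher and 3.63% lower. A2m, the broad inhibitor alpha-2-macroglobulin, had mean counts of 532 and 3316 and was 5.98-fold higher. Spink3, a Kazal-type trypsin inhibitor, had 3104 and 124 and was 26.1-fold lower. Spint1, a Kunitz inhibitor of membrane proteases, was 1.86-fold lower, Itih5 was 1.62-fold lower and Mug2 was 3.33-fold lower. Slpi, the secretory leukocyte protease inhibitor, was 1.73-fold higher, and Eppin, Wfdc18 and Spink8 were 3.95-fold, 2.76-fold and 1.79-fold higher at mean counts of at most 33. The cystatins and the metalloprotease inhibitors that reached the minimum, 3 and 4 genes, lay within 1.5-fold.

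Of 7 receptors and cofactors that bind serpins or their complexes, 2 were past 1.5-fold higher. Lrp2, megalin, an endocytic receptor of epithelia, had mean counts of 3948 and 9579 and was 2.33-fold higher. Sorl1, a related sorting receptor, had 2470 and 5026 and was 1.95-fold higher. Lrp1, which clears serpin-protease complexes, was level at 19828 and 18793, and so were Vldlr, Vtn, Sdc1 and Thbs1, whose log2 ratios lay between -0.03 and 0.32.

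**Figure D5:**
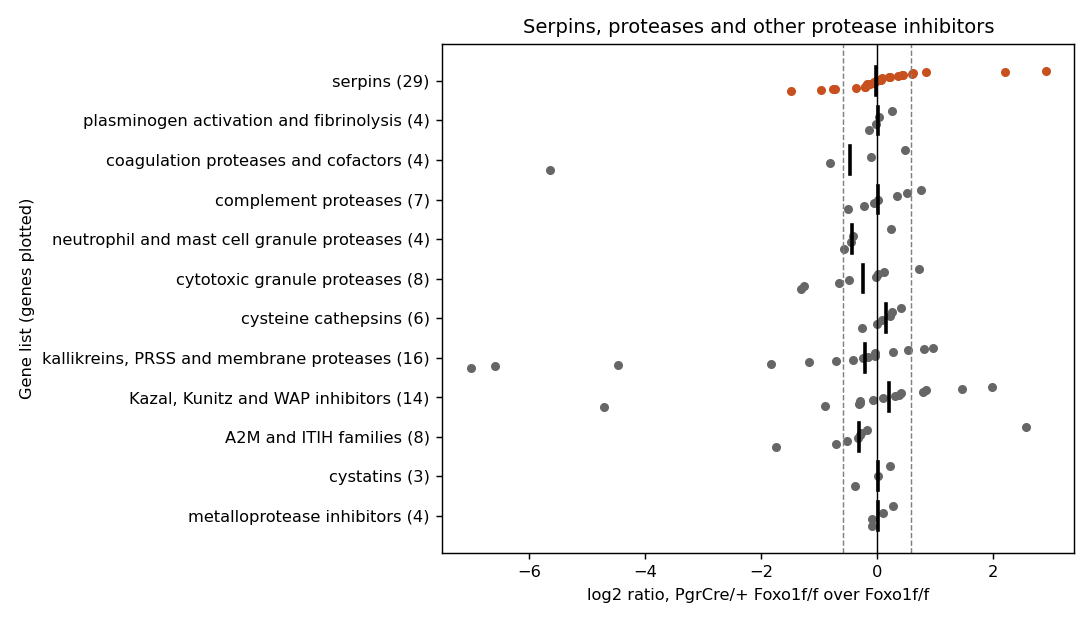
Log2 ratio of PgrCre/+ Foxo1f/f over Foxo1f/f (x axis) for genes that reached the count minimum, 1 row per list with the number of genes in brackets, a thick line at each median and dashed lines at 1.5-fold. The serpins range from -1.49 to 2.91 around a median of -0.01, while the list of kallikreins and membrane proteases reaches -7.00 (Prss35).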

How the data were processed

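Total RNA was isolated from the uteri of 3 pools of 2 females per genotype, and libraries were made from its poly(A) fraction with an Illumina TruSeq kit. The authors cut 11 nucleotides off the start of each read, mapped the 90-nucleotide pairs with STAR using RefSeq genes, removed duplicates with picard and counted reads per gene with HTSeq. The paper's methods name the build mm10 and the submitters' processing notes name mm9, so no coordinate was taken from the deposited table. Tool versions and the handling of reads that match several genes are not given in the sources used here. Duplicate removal can lower the counts of very abundant transcripts.

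The deposited table gives the authors' mean raw count per gene and genotype, and 3 times each mean was a whole number. Its other columns hold the authors' own comparison from EdgeR (fold change, average log2 CPM, p-value and FDR) and were not used. The number of columns with values of other samples was 0. Mean counts were divided by the total of their genotype (78375043 counts over the 3 libraries of Foxo1f/f and 81773890 for PgrCre/+ Foxo1f/f), and log2 ratios were taken without a pseudocount. Wilson intervals at the 95% level came from the summed counts. Counts after PCR are not independent molecules, and the intervals cover counting error only. A ratio over 1.5-fold was counted where the 2 mean counts averaged 10 or more, in the members and in all genes. Groups came from the genotype label. Every member with a mean count of at least 10 is named with its values except 1, which like 1 marker gene is not reported here, the other members are given as counts with examples, and from the lists the genes past 1.5-fold and those a result turns on are named. The members and the gene lists were chosen with earlier results of these data known, and the B cell list was added last.

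All 63 symbols matched GENCODE M21, and for 61 the transcript used carried a RefSeq mRNA accession. A RefSeq (GRCm38.p6) promoter entry was found for 52 of the 63. Windows of 90 bases were taken from GENCODE transcripts. Levels per kb used the GENCODE transcript length. Calculations were made in Python 3.11.15 with numpy 2.4.6, pandas 2.3.3 and scipy 1.17.1, drawn with matplotlib 3.10.9, and tested on simulated data. The alternatives were a pseudocount of 1, centring on the median gene, count minimums of 1 and 50, a stricter threshold of 2-fold and a looser one of 0.32 on the log2 scale, and paralogs summed per family.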

Additional observations from a re-analysis of the deposited data

How the results depend on the processing

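The number of serpins past 1.5-fold depended on the count minimum, the threshold and the treatment of paralogs. With a count minimum of 1, 10 of 37 members were higher and 5 lower. Over all genes, 1510 of 17901 were higher and 1047 lower, up from 875 and 569 of 15696. With a minimum of 50, 2 of 19 members were higher and 3 lower, beside 533 and 362 of 13856 genes. At 2-fold, 2 of the 29 members were higher and 1 lower, beside 330 and 229 of 15696 genes. At a looser threshold, a log2 ratio of 0.32, 8 were higher and 5 lower, beside 1995 and 1424. With paralogs summed per family, 18 families or single genes were left, of which 3 were higher and 2 lower. Of all 15685 genes so counted, 873 were higher and 567 lower. A pseudocount of 1 took Serpinb5 inside 1.5-fold and left 4 higher and 4 lower, beside 853 and 551 of 15696 genes. Centring on the median gene, a shift of 0.02 on the log2 scale, changed the side of the threshold of 0 of the 29 genes. Under these alternatives the median log2 ratio of the serpins lay between -0.05 and 0.07, on either side of 0. Among single genes, centring moved Serping1 to -0.20 and Serpinh1 to 0.04, outside their narrow counting intervals.

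No paired analysis was possible because the values used are means over the 3 libraries of each genotype. For the same reason the planned fits without each library were not run, and whether 1 pool decides the value of Serpina1e, Serpina9 or any other gene is not known. Depth limits the members under a mean count of 10, and the copies Serpina1a and Serpina1c are limited by shared sequence.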
